A study of Mus musculus with 24 samples.

Results

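The genes described here belong to 6 families of developmental transcription factors, the Nkx, Pax, Lhx, Dlx and Irx genes and the sine oculis-related genes Six2 to Six6. The families were chosen with earlier results of these data known, and within them genes of the deposited expression table were taken by symbol, not by their values: Nkx with both of its numbers, Pax1 to Pax9, Lhx1 to Lhx9, Dlx1 to Dlx6, Six2 to Six6 and Irx1 to Irx6. The 47 genes described here, of 54242 in the table, are 13 Nkx, 9 Pax, 8 Lhx, 6 Dlx and 6 Irx genes and the 5 genes Six2 to Six6. All 47 were detected above 0 in at least 1 of the 24 libraries.

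Nkx, Lhx, Dlx and Irx proteins and Six2 to Six6 bind DNA through a homeodomain and Pax proteins through a paired domain, to which some Pax proteins add a homeodomain. Each is used in a few territories of the embryo: Nkx and Irx genes set domains along the dorsoventral axis of the neural tube, Pax6 marks eye and neural progenitors, Lhx proteins act with LIM-binding partners in neurons and in the head organizer, Dlx genes pattern placenta, pharyngeal arches and forebrain, and Six2 to Six6 are related proteins, some of which act with Eya phosphatases in muscle and sensory placodes. In embryonic stem cells (ESCs) most of these genes are kept at a low level, and many of their promoters are rich in CpG and bound by Polycomb proteins.

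RNA-seq was performed on CGR8 cells, a mouse ESC line, in 8 groups of 3 libraries. Day 0 cells were grown with serum and LIF, and day 4 cells were treated after transfection for 4 days with 10 nM retinoic acid (RA), an inducer of differentiation. Collection 72 h after transfection is given for all groups, but the sources differ on this time and it is not settled for day 4. The study describes the RA step as free of LIF and the treatment labels of day 4 list none, while the growth notes, which are the same for all samples, give LIF, and the sources also name different basal media. On each day cells had received a pool of control siRNAs (si-CTL) or a pool of siRNAs against Rsl24d1 (si-Rsl24d1), which encodes a factor of large ribosomal subunit assembly, and each of these was measured without and with a rescue, that is, ectopic RSL24D1 induced by doxycycline. All groups are thus siRNA-transfected and none is an untransfected control. The rescue line was made by transposition of the inducible construct and drug selection of a pool of cells, and the deposited labels give an empty vector and no doxycycline for cells without rescue, so that the effects of doxycycline, of the construct and of the ectopic protein cannot be told apart. Libraries of a group are described as independent triplicates.

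Levels are given as TPM, the share of transcripts that a gene contributes after correction for its length, which the deposited table holds as log2(TPM + 1). TPM can thus be compared between genes. Rsl24d1 itself was at 136 to 148 TPM in day 0 si-CTL and 32.7 to 37.9 TPM in day 0 si-Rsl24d1 libraries (log2 fold change -1.95, standard error 0.07, adjusted p = 3.2e-14 from limma). With rescue at day 0, the si-CTL libraries were at 147 to 158 TPM and the si-Rsl24d1 libraries at 96.1 to 121 TPM, still below them. At day 4 without rescue, Rsl24d1 was at 95.9 to 101 TPM in si-CTL and 89.3 to 99.8 TPM in libraries labelled si-Rsl24d1, and the groups overlapped (log2 fold change -0.04, standard error 0.07, adjusted p = 0.660 from limma). The targeted transcript was therefore not measurably lower at day 4, and the siRNA named there is that of the label. The markers of pluripotent cells, 8 genes fixed as a list, summed to 5574 to 5733 TPM in day 0 si-CTL libraries, and none of the 8 was at 0 in any group. TPM keep no read numbers. Sequencing depth is therefore unknown here, and the precision of a value rests on the 3 libraries of its group.

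The promoters of these genes were read for their CpG content. RefSeq start sites (GRCm38.p6) were matched by symbol for 35 of the 47 genes, with 43 windows of 250 bases before to 50 bases after a start. The median window held 17 CpG, against 7 in all 32851 windows, and 65.1% of the windows had at least 50% G and C with an observed to expected CpG ratio of at least 0.6, against 33.5% of all. The other windows missed these limits, that of Nkx2-9 among them (ratio 0.571), and Lhx8 was lowest with 4 CpG. Pairs of AGGTCA 5 bases apart in 1 orientation, a layout that RA receptors are known to bind, were in 0 of the 43 windows and in 3 of all windows, counting both strands. A single AGGTCA was in 2 windows (4.65%, against 16.3% of all) and TATAAA, searched on the strand of the gene, in 1 (2.33%, against 8.32% of all). These are letter matches and say nothing on binding. The 250 bases before the start are shown for Nkx2-9, Nkx6-2 and Irx2, 3 genes on which the results below turn and whose RefSeq start is also the end of the annotated gene, with the C and G of each CpG in capitals, 5′ to 3′ on the strand of the gene. They lie at chr12:56613285-56613534 (minus strand, 13 CpG), chr7:139582798-139583047 (minus strand, 26 CpG) and chr13:72628570-72628819 (plus strand, 19 CpG) of GRCm38.p6. The median over all such upstream stretches is 6 CpG.
Nkx2-9: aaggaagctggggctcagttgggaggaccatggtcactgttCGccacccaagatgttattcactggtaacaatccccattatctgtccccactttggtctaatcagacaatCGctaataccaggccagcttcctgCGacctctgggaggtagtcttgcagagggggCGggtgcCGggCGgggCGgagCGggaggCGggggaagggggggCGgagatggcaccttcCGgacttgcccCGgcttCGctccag
Nkx6-2: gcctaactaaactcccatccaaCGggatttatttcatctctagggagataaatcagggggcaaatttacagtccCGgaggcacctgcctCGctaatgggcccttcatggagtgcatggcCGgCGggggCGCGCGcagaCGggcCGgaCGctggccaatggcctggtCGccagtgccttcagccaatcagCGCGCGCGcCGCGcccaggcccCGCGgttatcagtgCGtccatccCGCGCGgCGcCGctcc
Irx2: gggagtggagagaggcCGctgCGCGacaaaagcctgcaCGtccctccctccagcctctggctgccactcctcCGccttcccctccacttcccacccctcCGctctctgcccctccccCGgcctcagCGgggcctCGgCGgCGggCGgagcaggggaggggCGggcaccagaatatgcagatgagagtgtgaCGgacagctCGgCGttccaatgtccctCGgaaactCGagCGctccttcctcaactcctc

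Most of these genes were barely detected. Of the 47, 32 stayed under 1 TPM in every library and 4 reached 10 TPM in at least 1 library. The median of all member values was 0.146 TPM, and 14 members were at 0 in at least 1 library. Tests covered the 16447 genes whose log2(TPM + 1), averaged over all libraries, reached 0.5, and 15 members passed: Nkx2-5, Nkx2-9, Nkx6-2, Pax6, Pax8, Lhx6, Dlx3, Six2, Six4, Six5 and Irx1 to Irx5. Another 7, Nkx1-2, Nkx2-2, Nkx2-4, Lhx1, Lhx2, Dlx4 and Dlx5, were above that level in at least 1 group but not over all libraries. A gene can pass such a filter through the group in which it is high, so counts among the 15 do not stand for the 47. The remaining 25, Nkx1-1, Nkx2-1, Nkx2-3, Nkx2-6, Nkx3-2, Nkx6-1, Nkx6-3, Pax1 to Pax5, Pax7, Pax9, Lhx3 to Lhx5, Lhx8, Lhx9, Dlx1, Dlx2, Dlx6, Six3, Six6 and Irx6, were below it in every group and at most 0.634 TPM in any library.

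In day 0 si-CTL cells the order of the means was Six4 (15.0 ± 2.57 TPM, mean ± SD, n = 3), Pax6 (8.20 ± 0.947 TPM), Nkx6-2 (4.30 ± 0.332 TPM) and Nkx2-9 (2.15 ± 0.276 TPM). The libraries of these 4 genes did not overlap between neighbours in that order. Six4, a partner of the Eya proteins, thus stood with Pax6 above the other members described here in undifferentiated cells. In day 0 si-Rsl24d1 cells Nkx2-9 was first at 16.9 ± 0.302 TPM, ahead of Six4 at 8.03 ± 0.570 TPM. At day 4 the leading members in si-CTL were Six4 (16.4 ± 0.416 TPM), Pax6 (9.53 ± 0.379 TPM) and Irx2 (6.92 ± 0.215 TPM). The 47 genes together summed to 38.8 to 45.2 TPM in the day 0 si-CTL and 57.1 to 59.9 TPM in the day 0 si-Rsl24d1 libraries, and to 50.8 to 54.7 and 60.4 to 68.4 TPM in the corresponding day 4 libraries.

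**Figure D1:**
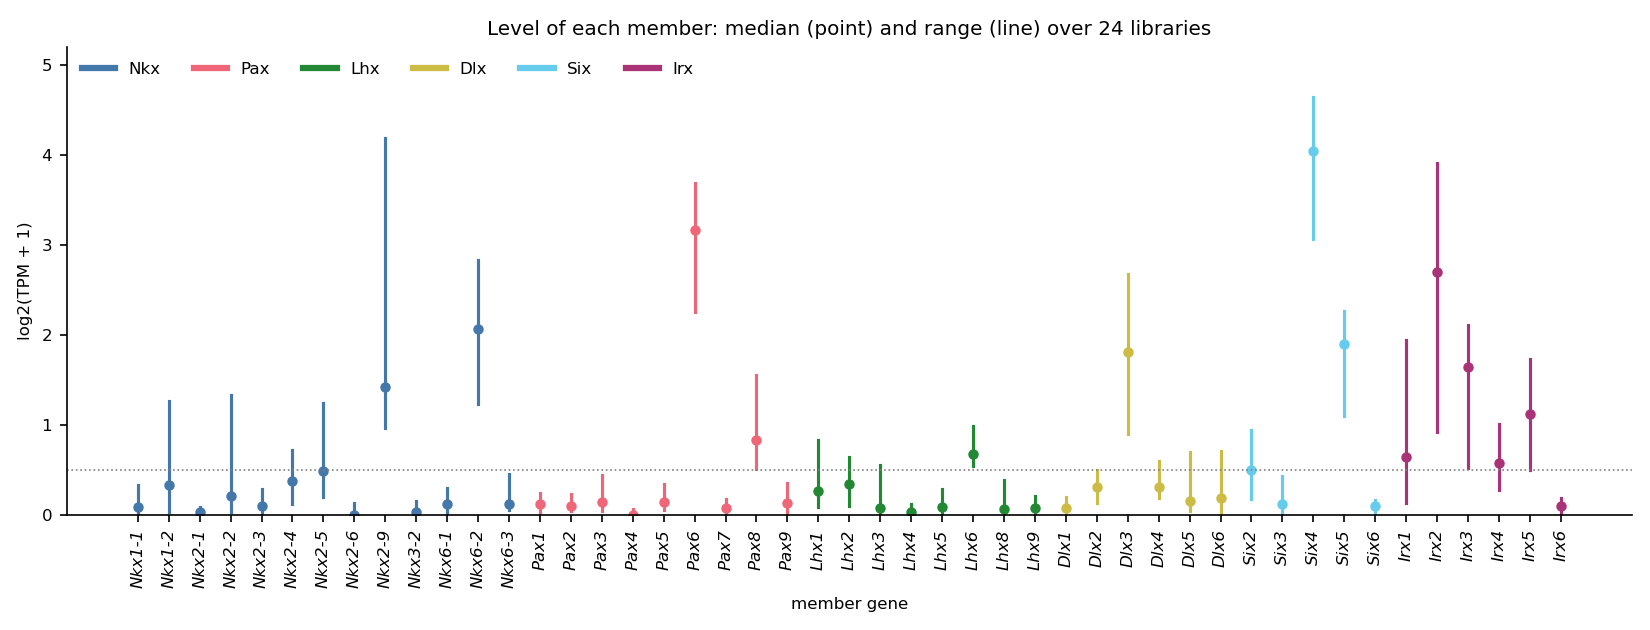
Level of each of the 47 genes, as log2(TPM + 1), with genes on the x axis coloured by family; points are medians and lines the lowest to the highest of 24 libraries, and the dotted line is the filter at 0.5. Most lines lie under the filter, and Six4, Pax6, Irx2 and Nkx2-9 reach the highest values.

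The first comparison asked what loss of Rsl24d1 does to these genes in self-renewing cells. Nkx2-9, Irx3 and Irx5 rose in day 0 si-Rsl24d1 cells compared with si-CTL. A gene is called here when its Benjamini-Hochberg adjusted p is below 0.01 and its change on the log2(TPM + 1) scale is over 1.8-fold (0.848 on the log2 scale). Of the 15 tested members limma called 3 (4.18% of all tested genes were), 3 up (3.4% of all) and 0 down (0.772% of all). Without si-Rsl24d1 replicate 2 the calls were 5, with Irx2 (1.06 on the log2 scale) and Six4 (-0.85) added. At adjusted p below 0.01 alone, 6 members were higher (14.3% of all genes) and 2 lower (16.1%). The median change of the 15 was 0.25 on the log2 scale, against -0.01 for all tested genes. In bulk samples, a change in the share of cells that express a gene and a change in the level per cell cannot be told apart.

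Nkx2-9, a ventral neural tube factor known as a Hedgehog response gene (chromosome 12, 56611389 to 56613284, minus strand of GRCm38), was at 1.83, 2.33 and 2.29 TPM in the si-CTL libraries. It was at 17.0, 16.6 and 17.2 TPM in the si-Rsl24d1 libraries. Every si-Rsl24d1 library was above every si-CTL library, with a ratio of mean TPM of 7.86 (log2 fold change 2.51, standard error 0.07, adjusted p = 1.5e-15 from limma). Nkx6-2, another ventral neural tube factor, was at 4.67, 4.03 and 4.19 TPM in si-CTL and 6.11, 5.27 and 5.31 TPM in si-Rsl24d1 libraries and did not pass (adjusted p = 0.0124 from limma). Nkx2-5, the cardiac member, differed by 0.03 on the log2 scale (adjusted p = 0.804 from limma).

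Irx3 and Irx5, neighbours in the Irx3, Irx5 and Irx6 cluster of chromosome 8 with roles in neural tube, limb and heart, moved together. Irx3 (chromosome 8, 91798525 to 91802067, minus strand) was at 0.460, 0.571 and 0.824 TPM in si-CTL and 3.13, 2.90 and 2.89 TPM in si-Rsl24d1 libraries (log2 fold change 1.30, standard error 0.08, adjusted p = 2.0e-10 from limma). Irx5 (chromosome 8, 92357625 to 92376286, plus strand) was at 0.442, 0.514 and 0.407 TPM in si-CTL and 2.22, 2.27 and 2.31 TPM in si-Rsl24d1 libraries (log2 fold change 1.17, standard error 0.09, adjusted p = 5.0e-09 from limma). For both genes the groups were separate, and the Irx5 change fell under 1.8-fold with 2 in place of 1 added to the TPM (0.80 on the log2 scale). The third gene of the cluster, Irx6, was at most 0.0947 TPM in the same libraries. In the other cluster, on chromosome 13, Irx2 passed adjusted p alone (log2 fold change 0.82, standard error 0.21, adjusted p = 0.00306 from limma), with si-Rsl24d1 libraries that ranged from 2.41 to 5.42 TPM. Irx1 and Irx4 of that cluster differed by 0.25 and 0.03 on the log2 scale, with adjusted p = 0.0598 and 0.778 from limma.

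Six4 (chromosome 12, 73099609 to 73113456, minus strand) was at 17.9, 14.0 and 13.1 TPM in si-CTL and 8.23, 8.47 and 7.38 TPM in si-Rsl24d1 libraries. The Six4 groups did not overlap, but the change stayed short of 1.8-fold on this scale (log2 fold change -0.82, standard error 0.12, adjusted p = 1.2e-05 from limma). Pax6 (chromosome 2, 105668900 to 105697364, plus strand), in the same position, was at 9.25, 7.42 and 7.92 TPM in si-CTL and 4.76, 4.54 and 3.77 TPM in si-Rsl24d1 libraries (log2 fold change -0.78, standard error 0.09, adjusted p = 1.1e-06 from limma). Six4 and Pax6, the leading members in si-CTL cells, were thus lower on adjusted p alone, while Six5 (0.47, adjusted p = 4.6e-05 from limma) and Dlx3 (0.56, adjusted p = 1.3e-04 from limma), a placental and epidermal factor, were higher by the same measure. Pax8, Lhx6 and Six2 did not pass, with log2 fold changes of -0.28, -0.07 and 0.10.

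**Figure D2:**
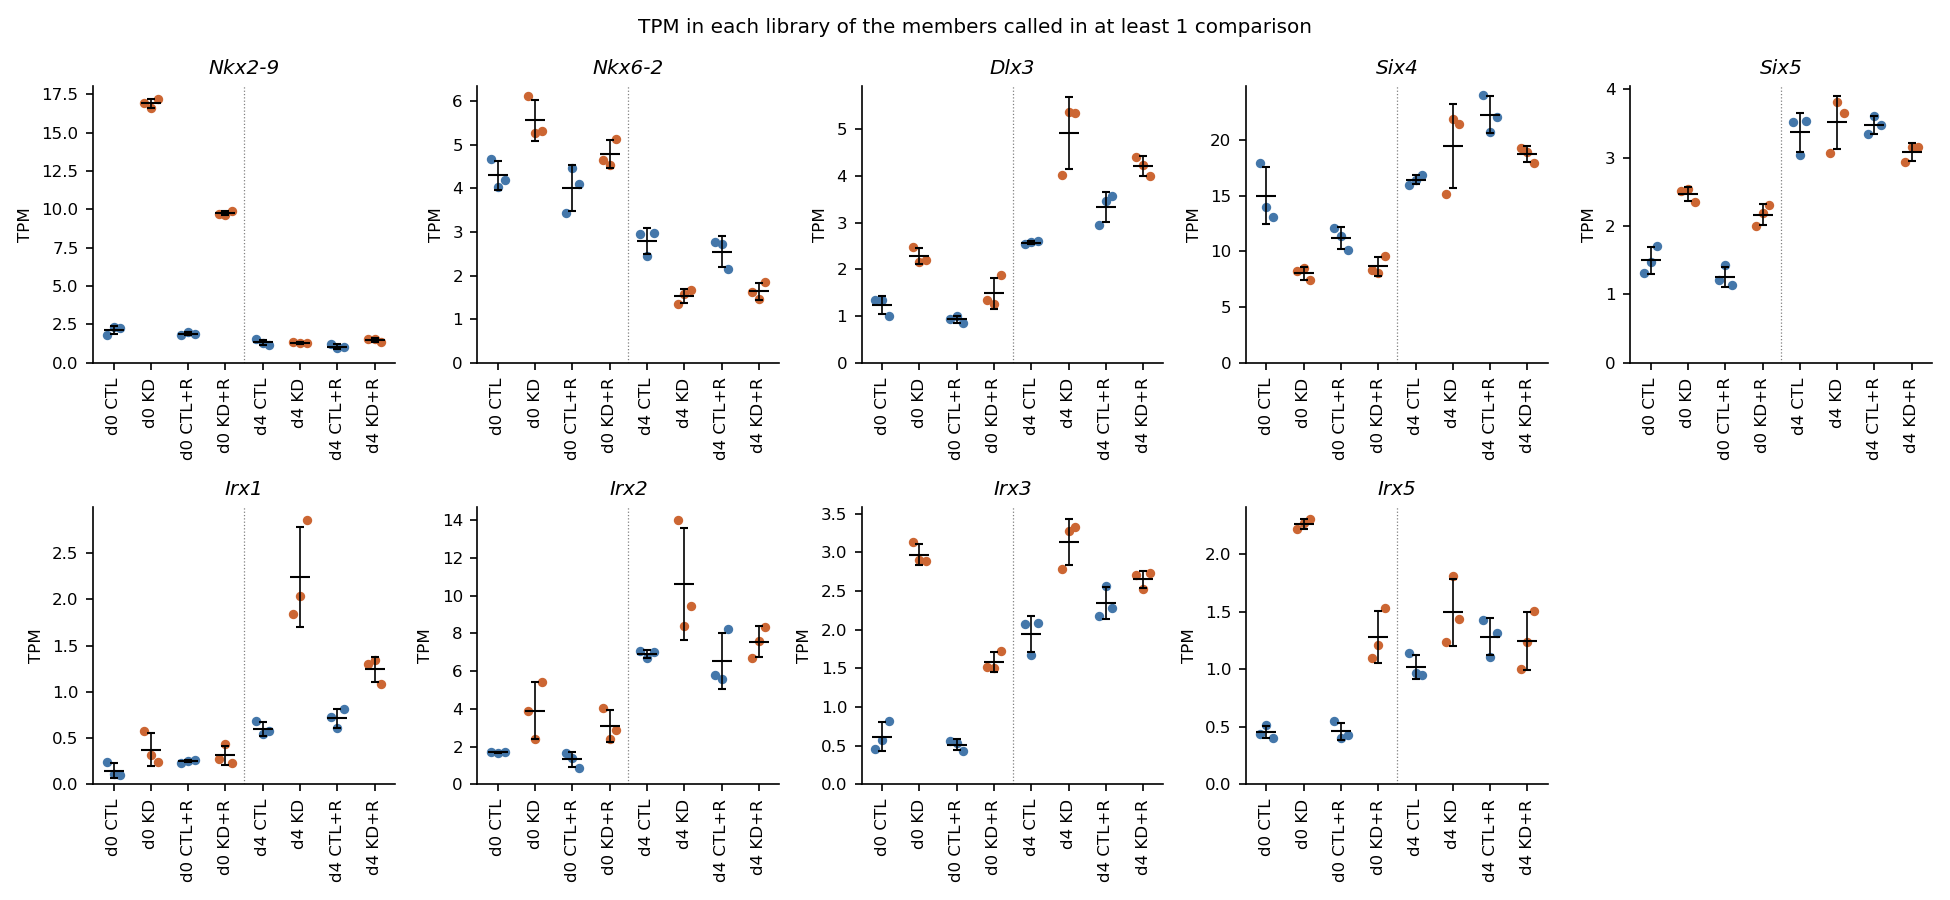
TPM (y axis, from 0) of the 9 members called in at least 1 comparison between 2 groups, in each library by group (x axis: d0 and d4, day 0 and day 4; CTL and KD, the labels si-CTL in blue and si-Rsl24d1 in orange; R, rescue); horizontal marks and bars are mean ± SD of 3 libraries. Nkx2-9 is high in the day 0 si-Rsl24d1 groups, at 16.9 TPM without and 9.75 TPM with rescue, and at most 2.33 TPM elsewhere; Irx2 is higher in each day 4 group than in its day 0 counterpart.

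Markers of other cell types were read beside these results. Of 8 tested genes of neural progenitors and neurons 1 was called up, Neurod1 (2.59 on the log2 scale, adjusted p = 3.1e-15 from limma), a neuronal differentiation factor. The summed level of the 10 genes of that list was 101 to 108 TPM in si-CTL and 131 to 134 TPM in si-Rsl24d1 libraries, with a median change of 0.30 over the tested genes. Of 8 pluripotency markers 2 were called down, Esrrb and Zfp42, and the list summed to 4629 to 4648 TPM in si-Rsl24d1 libraries, below si-CTL. Of 7 tested neural crest markers 1, Twist1, was called up, with sums of 20.5 to 22.1 and 24.4 to 24.6 TPM, and Tfap2b was at 0 in every si-CTL library. No tested marker of primitive endoderm (6), mesoderm (7), trophoblast (6) or fibroblasts, the usual feeder cells (7), was called at day 0. The trophoblast genes summed to 313 to 328 TPM in si-CTL and 362 to 382 TPM in si-Rsl24d1 libraries, the primitive endoderm genes to 35.6 to 43.5 and 46.1 to 47.6 TPM, the mesoderm genes to 31.2 to 33.4 and 31.2 to 33.4 TPM and the fibroblast genes to 38.6 to 48.1 and 28.5 to 30.0 TPM, and Lum was at 0 in the si-Rsl24d1 libraries. The part of these shifts in the changes of Nkx2-9, Irx3 and Irx5 was not tested.

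Members under the filter were looked at one by one as well. Over all 47 members the 3 si-Rsl24d1 libraries lay all above the 3 si-CTL libraries for 23 genes, where 14.4% of all 35764 genes above 0 in at least 1 library did so, and all below for 5 genes (14.1% of all genes). Of the 32 under the filter, 15 were above and 2 below. With no filter, 1 of these 32 was called, Nkx2-2 (1.94% of all 35764 genes were called). Nkx2-2, like Nkx2-9 a ventral neural tube factor, was at 0.131, 0.0574 and 0.0760 TPM in si-CTL and 1.51, 0.942 and 0.934 TPM in si-Rsl24d1 libraries, and the groups did not overlap (log2 fold change 0.96, standard error 0.12, adjusted p = 6.3e-06 from limma). Lhx1, a head organizer and kidney factor, was at 0.127 to 0.237 TPM in si-CTL and 0.542 to 0.782 TPM in si-Rsl24d1 libraries (log2 fold change 0.49, standard error 0.06, adjusted p = 1.9e-06 from limma). Lhx3, a factor of pituitary and motor neurons, was at 0.0187 to 0.0745 and 0.275 to 0.462 TPM in the same groups. Dlx4 was at 0.185 to 0.203 and 0.433 to 0.512 TPM, Nkx2-4 at 0.0832 to 0.429 and 0.462 to 0.644 TPM, and Nkx6-3, one of the lower ones, at 0.268 to 0.365 and 0.0603 to 0.0858 TPM. These levels are low in both groups, and 1 added to the TPM makes their fold changes smaller on the log2(TPM + 1) scale than as ratios of TPM.

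**Figure D3:**
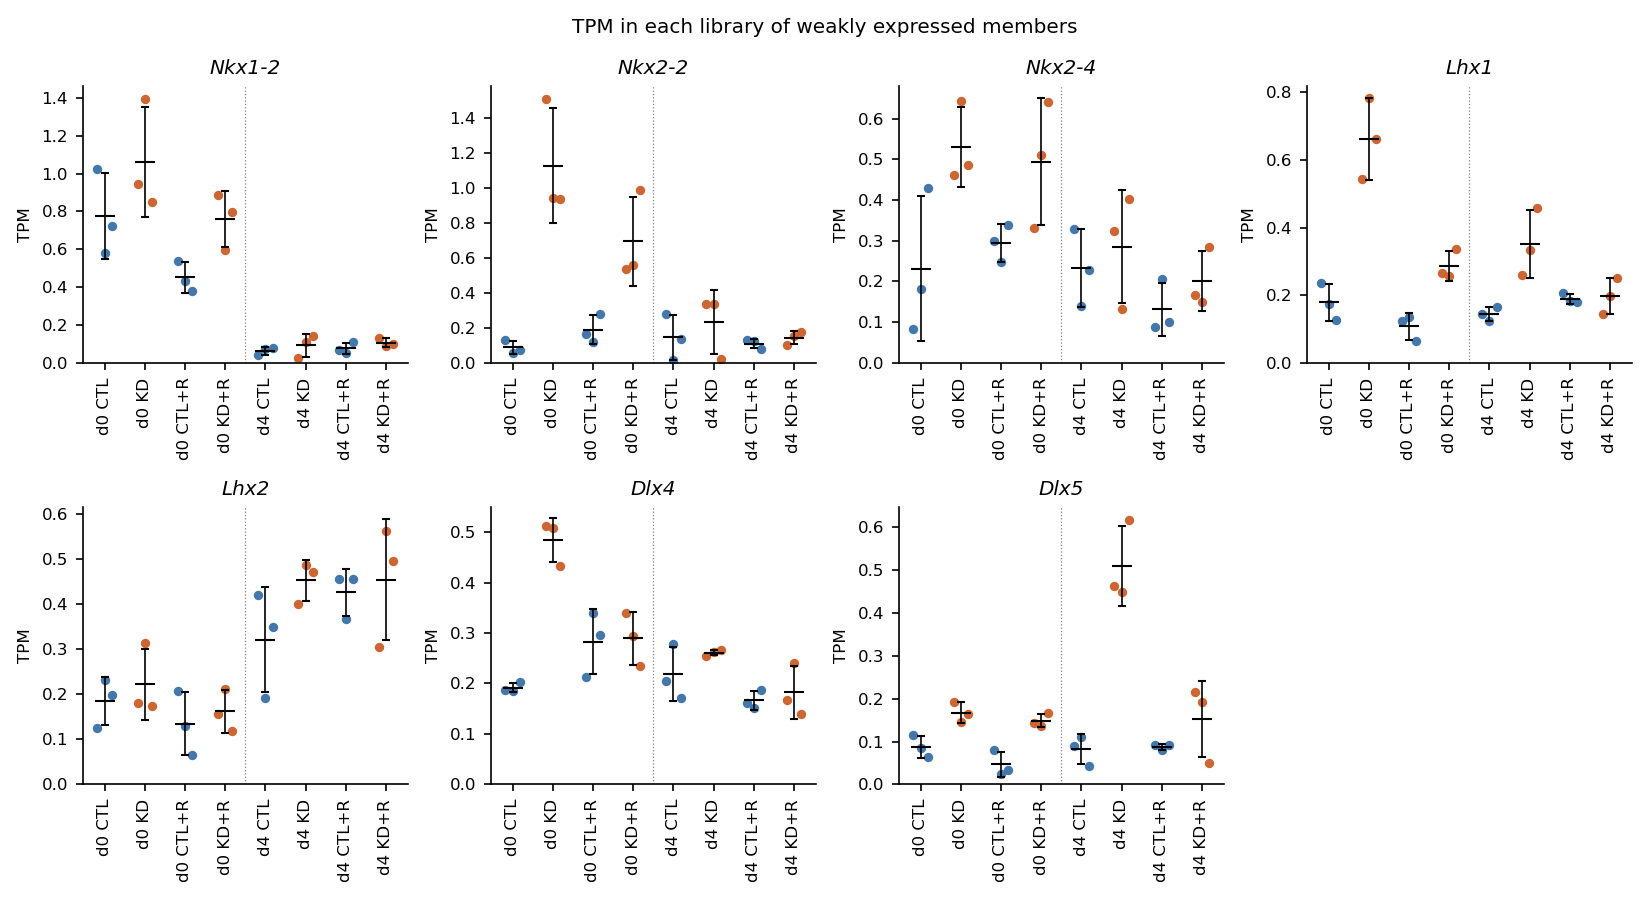
TPM (y axis, from 0) in each library of the 7 members that pass the filter in at least 1 group but not over all libraries, by group (x axis: d0 and d4, day 0 and day 4; CTL and KD, si-CTL in blue and si-Rsl24d1 in orange; R, rescue), with mean ± SD of 3 libraries. Nkx2-2 and Lhx1 have their highest means in day 0 si-Rsl24d1 cells, Nkx1-2 is high in the day 0 groups, and Dlx5 has its highest mean in day 4 libraries labelled si-Rsl24d1.

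The rescue groups asked whether ectopic RSL24D1 restores these levels. With rescue, Nkx2-9 was the 1 member of 15 called between si-Rsl24d1 and si-CTL cells at day 0 (1.36% of all genes were called). It was at 1.83, 2.02 and 1.86 TPM in rescued si-CTL and 9.69, 9.64 and 9.92 TPM in rescued si-Rsl24d1 libraries (log2 fold change 1.89, standard error 0.07, adjusted p = 3.8e-13 from limma). On adjusted p alone 5 members were higher and 1 lower, against 1333 higher and 928 lower of all 16447 genes. With 0.1 added to the TPM, Irx2 (1.17), Irx3 (1.46) and Irx5 (1.30) were called with rescue too. The difference between si-Rsl24d1 and si-CTL on the log2(TPM + 1) scale was 75.2% of that without rescue for Nkx2-9, 59.1% for Irx3 and 54.9% for Irx5. These percentages depend on the 1 added to the TPM, which weighs more on low genes, so they do not rank the 3 genes. Irx3 and Irx5 still differed by 0.77 and 0.64, under the 1.8-fold limit. Rescued si-Rsl24d1 libraries were at 1.52, 1.5 and 1.73 TPM for Irx3 and 1.10, 1.22 and 1.54 TPM for Irx5. For all 3 genes these libraries lay between the si-Rsl24d1 and the si-CTL libraries without rescue. Of the marker lists, 1 gene was called under rescue too, Neurod1 (2.03 on the log2 scale, adjusted p = 5.3e-13 from limma). The neural progenitor and neuron genes summed to 83.1 to 93.7 TPM in rescued si-CTL and 105 to 115 TPM in rescued si-Rsl24d1 libraries, the pluripotency genes to 5797 to 6042 and 5042 to 5437 TPM, the neural crest genes to 16.5 to 19.3 and 21.9 to 25.3 TPM, the primitive endoderm genes to 28.5 to 33.9 and 30.6 to 39.5 TPM, the mesoderm genes to 26.0 to 30.4 and 26.6 to 28.0 TPM, the trophoblast genes to 276 to 318 and 301 to 316 TPM and the fibroblast genes to 29.6 to 38.3 and 22.2 to 27.2 TPM. Their part in the Nkx2-9 difference was not tested.

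The change in the effect of the siRNA with rescue was tested as an interaction. No member was called in it with limma (0.128% of all genes were), and 5 of 15 had an unadjusted p below 0.05 (17.6% of all genes). Adjusted p below 0.01 was reached by Nkx2-9 (difference -0.62, standard error 0.10, adjusted p = 0.00109 from limma). For Irx3 the difference was -0.53 (adjusted p = 0.0113 from limma) and for Irx5 -0.53 (adjusted p = 0.0254 from limma). Irx2 and Six5 had almost the same difference without and with rescue, 0.82 and 0.81 for Irx2 and 0.47 and 0.49 for Six5, with adjusted p = 0.994 and 0.971 for the change from limma.

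**Figure D4:**
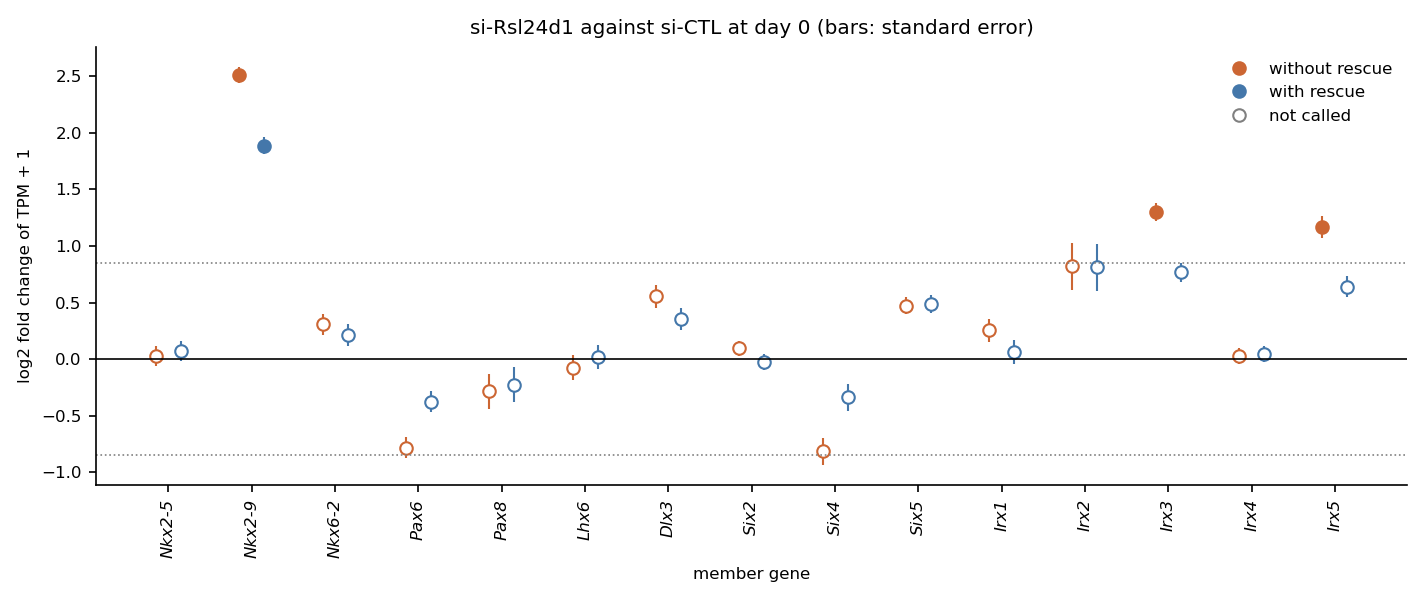
Log2 fold change of TPM + 1 between si-Rsl24d1 and si-CTL cells at day 0 (y axis) for the 15 tested members (x axis), without rescue (orange) and with rescue (blue); bars are standard errors, filled points are called, and dotted lines mark 1.8-fold. Nkx2-9 is called in both, at 2.51 and 1.89. Irx3 and Irx5 are called without rescue only, at 1.30 and 1.17, and lie at 0.77 and 0.64 with rescue. The change in effect reached adjusted p below 0.01 for Nkx2-9, not for Irx3 or Irx5.

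Rescued and unrescued cells with the same siRNA were also compared directly. These comparisons share the unrescued libraries with those above. In si-Rsl24d1 cells at day 0 limma called 0 members (0.28% of all genes) and 5 of 15 had an unadjusted p below 0.05 (42.9% of all genes). On adjusted p alone 4 members were lower with rescue (12.2% of all genes) and 0 higher (3.06%). The 4 were Nkx2-9 (-0.74), Irx3 (-0.62), Irx5 (-0.52) and Dlx3 (-0.40) on the log2 scale. Over all 47 members the rescued libraries lay all below the unrescued ones for 16 genes (18.4% of all genes did) and all above for 0 (5.24%). In si-CTL cells the same step gave 7 below (18.9% of all genes) and 3 above (2.78%), with 0 members called by limma (0% of all genes) and 2 at an unadjusted p below 0.05 (41% of all genes).

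At day 4, limma called 0 members between rescued and unrescued cells labelled si-Rsl24d1 (0.0851% of all genes), with 2 of 15 at an unadjusted p below 0.05 (24.2% of all genes), and 0 members in si-CTL cells (0.0547% of all genes), with 6 of 15 (39% of all genes). Irx1 alone passed adjusted p in the first of these, at 1.84, 2.03 and 2.85 TPM without and 1.30, 1.34 and 1.08 TPM with rescue (log2 fold change -0.52, standard error 0.10, adjusted p = 0.00282 from limma).

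RA treatment asked how these genes move as cells leave self-renewal. Every day 4 group received RA, so effects of RA, of time in culture and of any LIF withdrawal cannot be told apart. In si-CTL cells Irx2 and Irx3 rose by day 4, and none of the 15 tested members was called down. The 2 calls of 15 stand against 15% of all tested genes, so with 1 added to the TPM the count is no more than the background gives. With 0.1 added, Dlx3, Irx1, Irx4, Irx5, Six2 and Six5 were called as well, and the share of all genes there is not given. On adjusted p alone 9 members were higher (24.1% of all genes) and 2 lower (36.7%). Of the 9, Irx1, Irx4, Six2 and Nkx2-5 passed the filter only through their day 4 groups. This count and the median of the 15 are thus partly set by the filter. The median change was 0.37 on the log2 scale for the 15 and -0.10 for all genes. Over all 47 members, the day 4 libraries lay all above for 16 genes (17.8% of all genes) and all below for 10 (23.5%). Of the 32 under the filter, 6 were above and 7 below.

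Irx2 (chromosome 13, 72628820 to 72634198, plus strand), a gene of neural and limb territories, was at 1.71, 1.67 and 1.70 TPM at day 0 and 7.08, 6.68 and 7.00 TPM at day 4 (log2 fold change 1.56, standard error 0.21, adjusted p = 1.4e-06 from limma). Irx3 was at 0.460, 0.571 and 0.824 TPM at day 0 and 2.07, 1.68 and 2.09 TPM at day 4 (log2 fold change 0.87, standard error 0.08, adjusted p = 1.9e-08 from limma). The days were separate for both genes. The Irx3 call was lost without day 0 si-CTL replicate 1 (0.80 on the log2 scale), day 4 si-CTL replicate 1 (0.84) or replicate 3 (0.83), and with 2 added to the TPM (0.59). Below 1.8-fold on this scale but past adjusted p were Six5 (0.81), Dlx3 (0.68), Six2 (0.53), a factor of nephron progenitors, Irx1 (0.48), Irx5 (0.48), Irx4 (0.37), a factor of the cardiac ventricle, and Nkx2-5 (0.28), all higher. Nkx6-2 (-0.48) and Nkx2-9 (-0.44) were lower. Irx1 to Irx5 were thus higher on adjusted p, though Irx1 and Irx4 passed the filter only through their day 4 groups. Irx6 stayed at 0.0287 to 0.0711 TPM. Six4 and Pax6, the leading members at day 0, differed by 0.13 and 0.20 (adjusted p = 0.320 and 0.0614 from limma).

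Day 4 and day 0 were also compared in cells labelled si-Rsl24d1, whose day 0 libraries also enter the day 0 comparison above. Rsl24d1 itself was at 32.7 to 37.9 TPM in these cells at day 0 and 89.3 to 99.8 TPM at day 4. Effects of RA and of this change in Rsl24d1 therefore cannot be told apart here. In these cells 5 members were called between the days (14.1% of all genes), 3 up and 2 down. Irx1, among those up, passed the filter only through its day 4 groups. Nkx2-9 fell from 17.0, 16.6 and 17.2 TPM to 1.34, 1.27 and 1.27 TPM (log2 fold change -2.96, standard error 0.07, adjusted p = 2.2e-17 from limma). Nkx6-2 (chromosome 7, 139579376 to 139582797, minus strand) fell from 6.11, 5.27 and 5.31 TPM to 1.35, 1.58 and 1.66 TPM (log2 fold change -1.37, standard error 0.09, adjusted p = 1.3e-10 from limma). At day 4 Nkx2-9 overlapped the si-CTL libraries and Nkx6-2 lay below them. Six4 rose from 8.23, 8.47 and 7.38 TPM to 15.1, 21.8 and 21.4 TPM (log2 fold change 1.16, standard error 0.12, adjusted p = 3.7e-08 from limma). The day 4 libraries of Six4 overlapped those of si-CTL cells. Irx1 (chromosome 13, 71957921 to 71963723, minus strand) rose from 0.573, 0.313 and 0.241 TPM to 1.84, 2.03 and 2.85 TPM (log2 fold change 1.23, standard error 0.10, adjusted p = 3.2e-09 from limma), and this change was 0.83 with 2 added to the TPM, under the 1.8-fold limit. Irx2 rose from 3.91, 2.41 and 5.42 TPM to 14.0, 8.42 and 9.48 TPM (log2 fold change 1.26, standard error 0.21, adjusted p = 2.1e-05 from limma), with a wide spread at both days. With no filter Nkx1-2, a gene of the caudal epiblast and early neural plate, was called too (6.63% of all 35764 genes were). It was at 0.943, 1.39 and 0.850 TPM at day 0 and 0.0230, 0.112 and 0.143 TPM at day 4 (log2 fold change -0.91, standard error 0.09, adjusted p = 1.4e-07 from limma).

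**Figure D5:**
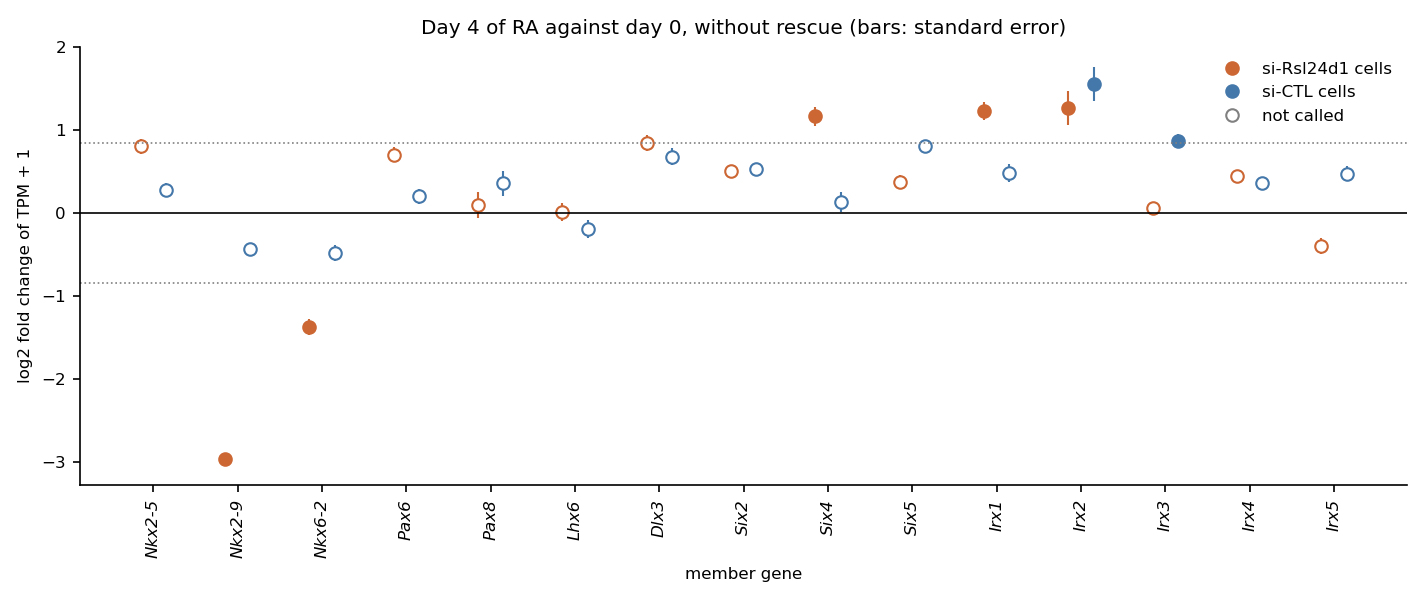
Log2 fold change of TPM + 1 between day 4 of RA and day 0, without rescue (y axis), for the 15 tested members (x axis) in si-Rsl24d1 (orange) and si-CTL cells (blue); bars are standard errors, filled points are called, and dotted lines mark 1.8-fold. Irx2 is called in both, at 1.26 and 1.56, while Nkx2-9 is at -2.96 in si-Rsl24d1 and -0.44 in si-CTL cells and Six4 at 1.16 and 0.13. In si-Rsl24d1 cells Rsl24d1 itself was higher at day 4 than at day 0, which cannot be told apart from RA.

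With rescue, 5 of 15 members were called between the days in si-CTL cells (15.6% of all genes) and 5 in si-Rsl24d1 cells (14.9%). In rescued si-CTL cells Irx2 (1.69), Dlx3 (1.16), Irx3 (1.14), Six5 (0.99) and Six4 (0.93) rose on the log2 scale. Dlx3 (chromosome 11, 95120119 to 95125296, plus strand) was at 0.946, 0.999 and 0.857 TPM at day 0 and 2.96, 3.46 and 3.56 TPM at day 4 there. Six5 (chromosome 7, 19094594 to 19098549, plus strand) was at 1.21, 1.42 and 1.14 and 3.35, 3.61 and 3.47 TPM, and Six4 at 12.1, 11.4 and 10.1 and 24.0, 20.7 and 22.1 TPM. All 3 had separate days. Six5 and Irx3 fell under the limit with 2 added to the TPM (0.75 and 0.79), and Six4 did so with median of ratios scaling (0.80). Irx2 was at 1.68, 1.42 and 0.892 and 5.82, 5.57 and 8.22 TPM and Irx3 at 0.565, 0.541 and 0.437 and 2.17, 2.57 and 2.28 TPM. In rescued cells labelled si-Rsl24d1 Irx2 (1.08), Dlx3 (1.07) and Six4 (1.03) rose and Nkx2-9 (-2.12) and Nkx6-2 (-1.13) fell, with Dlx3 at 0.84, under the limit, when 2 was added to the TPM. Nkx2-9 went from 9.69, 9.64 and 9.92 TPM to 1.55, 1.54 and 1.36 TPM and Nkx6-2 from 4.66, 4.54 and 5.14 TPM to 1.63, 1.46 and 1.84 TPM. Rsl24d1 in rescued cells labelled si-Rsl24d1 was at 96.1 to 121 TPM at day 0 and 127 to 134 TPM at day 4, so the days differ there too. Irx2 was called up in each of the 4 RA comparisons.

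Between cells labelled si-Rsl24d1 and si-CTL at day 4, where Rsl24d1 itself did not differ measurably, Irx1 was the 1 member called (1.63% of all genes were). It was at 0.688, 0.546 and 0.574 TPM in si-CTL and 1.84, 2.03 and 2.85 TPM in libraries labelled si-Rsl24d1 (log2 fold change 1.01, standard error 0.10, adjusted p = 7.3e-07 from limma). The groups were separate, and with 2 added to the TPM the change was 0.70, under the 1.8-fold limit. On adjusted p alone 4 members were higher (24.9% of all genes), Irx1, Dlx3 (0.72), Nkx2-5 (0.56) and Irx3 (0.49), and 2 lower (6.04%), Nkx6-2 (-0.58) and Pax8 (-0.54), a thyroid and kidney factor. Nkx2-5 was at 0.454, 0.470 and 0.556 TPM in si-CTL and 0.925, 1.36 and 1.34 TPM in the labelled libraries. The median change of the 15 was 0.13, against 0.13 for all genes, and over all 47 members 19 lay all above (20.6% of all genes) and 3 all below (6.42%). Nkx2-9, at 1.52, 1.31 and 1.15 TPM in si-CTL and 1.34, 1.27 and 1.27 TPM in the labelled libraries, differed by -0.02 (adjusted p = 0.867 from limma). Dlx5, a pharyngeal arch and forebrain factor under the filter, was at 0.0901, 0.112 and 0.0430 TPM in si-CTL and 0.463, 0.450 and 0.616 TPM in the labelled libraries (log2 fold change 0.48, standard error 0.05, adjusted p = 1.2e-06 from limma). With rescue, limma called 0 of 15 members at day 4 (0.73% of all genes), and 5 had an unadjusted p below 0.05 (25.5% of all genes).

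The summed levels of several marker lists were also higher in these day 4 libraries. The 8 fibroblast genes summed to 109 to 117 TPM in si-CTL and 212 to 282 TPM in libraries labelled si-Rsl24d1, and 3 of 7 tested were called up, Col3a1, Col1a1 and Postn. Primitive endoderm genes summed to 50.3 to 56.4 and 82.0 to 109 TPM (2 of 6 called up, Gata6 and Dab2). Neural crest genes summed to 16.0 to 17.2 and 33.1 to 40.3 TPM (2 of 7 called up, Twist1 and Ets1), mesoderm genes to 12.1 to 12.8 and 21.8 to 26.2 TPM (1 of 7, Hand1), neural progenitor and neuron genes to 32.9 to 33.7 and 47.3 to 58.0 TPM (1 of 8, Nes), trophoblast genes to 396 to 433 and 521 to 614 TPM (0 of 6) and pluripotency genes to 7026 to 7209.7 and 6167 to 6975 TPM (0 of 8). Median changes of the tested genes were 0.58, 0.72, 0.80, 0.13, 0.06, 0.48 and 0.07 in the order of these 7 lists, against 0.13 for all genes. The mesoderm list and the neural progenitor and neuron list were thus not above all genes by median, although their sums were higher. Of the pluripotency genes 2 were higher and 0 lower on adjusted p alone, although their sum was lower. No gene of these lists was at 0 in all 3 libraries of either group. Their part in the Irx1 difference was not tested.

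The dependence of the siRNA effect on the day was tested without rescue, as the difference at day 4 minus that at day 0. It was called for 4 of 15 members (5.61% of all genes). The effect was more negative at day 4 for Nkx2-9 (-2.53, standard error 0.10, adjusted p = 7.8e-13 from limma), Nkx6-2 (-0.89, adjusted p = 2.8e-05 from limma) and Irx5 (-0.87, adjusted p = 3.8e-05 from limma). It was more positive for Six4 (1.03, adjusted p = 6.4e-05 from limma). With no filter Nkx2-2 (-0.86) was called in addition (2.59% of all 35764 genes). For Irx1, called at day 4 and not at day 0, the difference between the days was 0.75 (adjusted p = 4.7e-04 from limma), under the 1.8-fold limit. Rsl24d1, the targeted gene, had a difference of 1.91. The Irx5 call was lost without day 0 si-CTL replicate 3 (-0.85), day 4 si-CTL replicate 1 (-0.83) or day 4 si-Rsl24d1 replicate 1 (-0.79), and with 2 added to the TPM (-0.59). The Nkx6-2 call was lost without day 0 si-Rsl24d1 replicate 1 (-0.83) or day 4 si-Rsl24d1 replicate 1 (-0.84), and with 2 added to the TPM (-0.70).

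Tested members that were not called in any comparison are given by their group means over the 8 groups. Pax6 ranged from 4.36 to 11.2 TPM, highest in rescued day 4 si-CTL. Nkx2-5 was at 0.194 to 1.21 TPM, highest in day 4 libraries labelled si-Rsl24d1, and Pax8 at 0.581 to 1.51 TPM, highest in day 4 si-CTL. Six2 and Irx4 had their higher means on day 4, with Six2 at 0.188 to 0.802 TPM, highest in day 4 libraries labelled si-Rsl24d1, and Irx4 at 0.252 to 0.829 TPM, highest in day 4 libraries labelled si-Rsl24d1. Lhx6, a factor of cortical interneurons and the only tested Lhx gene, varied least, at 0.524 to 0.771 TPM, highest in day 0 si-CTL. Lhx2, an eye and forebrain factor under the filter, was at 0.135 to 0.455 TPM, highest in rescued day 4 libraries labelled si-Rsl24d1, and Nkx2-4 at 0.131 to 0.531 TPM, highest in day 0 si-Rsl24d1.

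Of the 47 genes 22 lie within 1 Mb of another, in 9 clusters, and genes of a cluster did not always move alike. On chromosome 12, Nkx2-9 stood at 16.9 ± 0.302 TPM in day 0 si-Rsl24d1 cells, while Nkx2-1 and Pax9, in the same 180865 bases, were at most 0.0553 and 0.0514 TPM there. On the same chromosome Six4 was lower, and Six6, within the same 173565 bases, was at most 0.0869 TPM. Irx3 and Irx5 both rose. Irx6, barely detected, lay in the same direction, at 0.0116 to 0.0569 TPM in si-CTL and 0.0832 to 0.0947 TPM in si-Rsl24d1 libraries. On chromosome 2, Nkx2-2 and Nkx2-4 had every si-Rsl24d1 library above every si-CTL library, and Pax1 of the same cluster was at 0.0960 to 0.114 TPM in si-CTL and 0.112 to 0.169 TPM in si-Rsl24d1 libraries. Dlx3 and Dlx4, a convergent pair of chromosome 11, were both higher at day 0, at 2.47, 2.16 and 2.21 and 0.512, 0.508 and 0.433 TPM in si-Rsl24d1 libraries.

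Transcripts named as opposite strand or antisense partners were listed for 9 entries of the table. Irx3os, which overlaps Irx3 over 1653 bases, was at 0.229, 0.0580 and 0.0300 TPM in si-CTL and 0.446, 0.525 and 0.406 TPM in si-Rsl24d1 libraries at day 0, and at 0.562, 0.526 and 0.692 TPM in si-CTL at day 4. At day 0 both Irx3os and Irx3 were higher in si-Rsl24d1 than in si-CTL libraries. At day 4 Irx3os was at 0.496, 0.656 and 0.402 TPM in libraries labelled si-Rsl24d1 and overlapped si-CTL, where Irx3, at 2.79, 3.28 and 3.33 TPM, did not. Six3os1 was at 0.0615 to 0.0876 TPM in si-CTL at day 0 and 0.217 to 0.375 TPM at day 4, and Dlx4os, which overlaps Dlx4 over 1212 bases, at 0.0949 to 0.119 and 0.366 to 0.542 TPM. Dlx1as, Dlx6os1, Dlx6os2, Lhx1os, Nkx2-2os and Pax6os1 were at most 0.365 TPM. Since the sources name both a stranded and a poly-A kit, reads of Irx3 and Irx3os may not be fully separated.

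Partners and upstream genes were read from lists chosen by function. At day 0 in si-Rsl24d1 against si-CTL cells, 0 of 10 tested LIM partners of Lhx proteins, 0 of 4 Eya, Dach and Sobp proteins, which partner Six-type factors, 0 of 6 Groucho corepressors (Tle), 0 of 10 TALE cofactors (Pbx, Meis, Pknox, Tgif), 0 of 10 neural tube patterning factors outside the 6 families and 0 of 12 PRC2 subunits were called. On adjusted p alone, where 14.3% of all genes were higher and 16.1% lower, 1 PRC2 subunit was higher and 6 lower of 12, 0 Groucho corepressors higher and 3 lower of 6, 5 patterning factors higher and 0 lower of 10, 3 LIM partners higher and 2 lower of 10, 3 TALE cofactors higher and 1 lower of 10, 1 of the Eya, Dach and Sobp genes higher and 0 lower of 4, and 0 Hedgehog genes higher and 2 lower of 11. Median changes were -0.23 for PRC2, -0.30 for Groucho, 0.36 for patterning factors, 0.02 for LIM partners, 0.05 for Eya, Dach and Sobp and 0.03 for TALE cofactors, against -0.01 for all genes. Of 11 tested genes of the Hedgehog pathway, which acts upstream of Nkx2-2 and Nkx2-9 in the neural tube, 1 was called, Gli2, an effector of the pathway (-1.36 on the log2 scale, from 8.84 to 2.83 TPM, adjusted p = 1.5e-09 from limma). The median of the pathway was -0.12.

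Several partners and upstream genes were called with RA in si-CTL cells, where 15% of all genes were. Of 10 TALE cofactors 2 rose, Meis2 (2.89) and Meis1 (2.62), known partners of homeodomain proteins, and 1 fell, Tgif2 (-0.87). Of 11 Hedgehog genes 3 fell, Gli1 (-2.09), a known pathway target, Sufu (-1.22), an inhibitor of the pathway, and Gli2 (-1.02), and Gas1 (2.00), a coreceptor, rose, with a list median of -0.14 against -0.10 for all genes. In each of the other 3 RA comparisons 3 Hedgehog genes rose, the coreceptors Gas1, Cdon and Boc, and 1 fell, Gli1, while Sufu and Gli2 were not called. The list medians there were 0.52 in cells labelled si-Rsl24d1, 0.50 in rescued si-CTL and 0.44 in rescued si-Rsl24d1 cells, against 0.02, 0.12 and 0.06 for all genes. The median of the PRC2 list was -0.21 in si-CTL cells and 0.17, 0.16 and 0.15 in the same 3 comparisons. In si-CTL cells without rescue the remaining lists were as follows. Of 6 Groucho corepressors 2 fell, Tle4 (-1.5) and Tle3 (-1.22). Among 12 PRC2 subunits 3 fell, Epop (-2.31), Jarid2 (-1.62) and Eed (-0.98). Of the 4 Eya, Dach and Sobp genes Eya4 (1.24) rose, of 10 LIM partners Ssbp2 (1.19) and Lmo1 (0.99) rose, and of 10 patterning factors Dbx2 (1.76) rose and Gbx2 (-1.48), En2 (-0.90) and Zic2 (-0.89) fell. All 7 marker lists held called genes. Fibroblast genes summed to 38.6 to 48.1 TPM at day 0 and 109 to 117 TPM at day 4 (4 of 7 tested called up, 1 down), primitive endoderm genes to 35.6 to 43.5 TPM at day 0 and 50.3 to 56.4 TPM at day 4 (2 of 6 up, Dab2 and Gata6) and trophoblast genes to 313 to 328 TPM at day 0 and 396 to 433 TPM at day 4 (2 of 6 up, Krt7 and Gata3). Neural progenitor and neuron genes summed to 101 to 108 TPM at day 0 and 32.9 to 33.7 TPM at day 4 (4 of 8 down), mesoderm genes to 31.2 to 33.4 TPM at day 0 and 12.1 to 12.8 TPM at day 4 (2 of 7 down, T and Mixl1) and neural crest genes to 20.5 to 22.1 TPM at day 0 and 16.0 to 17.2 TPM at day 4 (1 of 7 up, Snai2, and 1 down, Foxd3). The neural crest sum fell although 4 of the 7 were higher and 1 lower on adjusted p alone, with a median change of 0.34. Pluripotency genes summed to 5574 to 5733 TPM at day 0 and 7026 to 7209.7 TPM at day 4, with Dppa5a called up and Tdgf1 and Pou5f1 down of 8. Dppa5a alone went from a mean of 2620 to 5346 TPM, so the sum does not show the direction of most of the list. On adjusted p alone 2 of the 8 were higher and 6 lower, with a median change of -0.72 on the log2 scale. The part of the marker lists in the Irx2 and Irx3 changes was not tested.

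At day 4, between cells labelled si-Rsl24d1 and si-CTL, Meis1 (1.10) of the TALE cofactors and Gas1 (0.85) of the Hedgehog pathway rose, and no gene of the LIM partner, Eya, Dach and Sobp, Groucho, patterning factor and PRC2 lists was called. List medians were 0.35, 0.34, 0.19, 0.27, 0.27, 0.14 and 0.25 in that order, against 0.13 for all genes.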

How the data were processed

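RNA-seq was analysed in 24 libraries of CGR8 cells, 3 in each of 8 groups set by day, siRNA and rescue. The authors quantified transcripts with Salmon and deposited 1 table of log2(TPM + 1) values per gene, with no read counts. The submitters' processing notes name Salmon 1.4.0 and STAR 2.7.8a, whereas the study's methods name other versions, and the sources also differ on the library kit, so that the use of strand is uncertain. TPM is a share of each library: a change in abundant genes shifts all others.

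The values were tested as deposited with limma 3.58.1 in R 4.3.3 (lmFit, eBayes with trend), with means of 8 groups sharing 1 estimate of the spread, 2-sided, on genes with log2(TPM + 1) averaging 0.5 or more. The limits of a call, 0.01 for the p adjusted by the method of Benjamini and Hochberg and 1.8-fold for the change, are those of the study. Because 1 is added to the TPM, fold changes of low genes are understated. The study's count test could not be run on these values. Members were taken by symbol. Of the 49 genes matched 2, and 2 genes of the lists below, are not reported here and are left out of every count of members and lists. Values in every library are given for those called in a comparison of 2 groups; members over the filter in at least 1 group are given by ranges, the others by their limits. The members, the partner lists (LIM partners, Eya, Dach and Sobp, Groucho, TALE, Hedgehog, patterning factors, PRC2) and the cell type markers were chosen with earlier results of these data known. Genes named from a list are the called ones with the largest changes, 3 at most per direction. Separate cultures are not further described, so p-values measure the spread between these libraries. Gene coordinates are from the gencode annotation of GRCm38 and promoters from RefSeq. Scripts were tested on simulated data. The alternatives were 0.1 or 2 added to the TPM, no filter or a filter at 1.5, no fold limit, median of ratios scaling, only the groups compared, a replicate block, and each library left out.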

Additional observations from a re-analysis of the deposited data

Results flagged for a closer look

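In 4 tested members the effect of the siRNA differed between day 4 and day 0 by a test of the difference itself (limma, without rescue). On the log2 scale the difference, day 4 minus day 0, was -2.528 for Nkx2-9, -0.8922 for Nkx6-2, -0.8703 for Irx5 and 1.03 for Six4. Rsl24d1 itself was lower in si-Rsl24d1 libraries at day 0 and not measurably lower at day 4, so the days compare cells with different levels of the targeted transcript. The share of all tested genes with such a difference was 5.61%.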

How the results depend on the processing

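The 26 called values of members were recomputed 355 times in all under the alternatives: 337 kept their direction and their side of the threshold, 18 fell short of the threshold and 0 reversed. Of the 18, 9 arose with 2 added to the TPM, 8 with a library left out and 1 with median of ratios scaling. No filter (26 values), the filter at 1.5 (19), only the groups compared (26) and the replicate block (26) leave a log2 fold change as it is. They could therefore not reverse it or move it across the 1.8-fold limit. With 0.1 added to the TPM, the members called became 7 for the day 0 knockdown (4 with rescue), 3 for the day 4 knockdown, 8 and 9 for RA in si-CTL and si-Rsl24d1 cells, 10 and 9 for the same with rescue, and 1 for rescue in si-Rsl24d1 cells at day 0 (Irx3, -0.87). At day 0 the gains were Irx1, Irx2, Pax6 and Six4. With 2 added, they became 2 for the day 0 knockdown, 0 for the day 4 knockdown, 1 for RA in si-CTL cells, 3 for the same with rescue and 2 for the interaction of siRNA and day. With the filter at 1.5, 1 was called in the day 0 knockdown, 0 in the day 4 knockdown and 1 for RA in si-CTL cells, since Irx3, Irx5 and Irx1 were then not tested. Shares of all genes are not given for the counts with 0.1 or 2 added, with the filter at 1.5 or with a library left out. Those counts therefore have no background beside them. With no fold limit the counts were 8 and 6 for the day 0 knockdown without and with rescue, 6 and 1 for day 4, 11, 12, 13 and 12 for RA in si-CTL, si-Rsl24d1, rescued si-CTL and rescued si-Rsl24d1 cells, 4 and 1 for rescue in si-Rsl24d1 cells at day 0 and day 4, 9 for the interaction with day and 1 for that with rescue. Over all 16447 genes, those higher and lower were 2357 and 2651 (day 0) and 1333 and 928 (day 0 with rescue). At day 4 they were 4094 and 993, and with rescue 384 and 581. For RA they were, in the same order, 3969 and 6041, 4833 and 4344, 6048 and 3684, and 5325 and 4237. For rescue in si-Rsl24d1 cells they were 504 and 2007, then 154 and 696. The interactions gave 3630 and 1452 with day and 149 and 194 with rescue.

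Leaving out each library gave 3 to 5 calls for the day 0 knockdown without rescue, with Irx2 (1.06) gained without si-Rsl24d1 replicate 2, and 1 to 2 calls for the day 0 knockdown with rescue, where Irx2 was gained without rescued si-CTL replicate 1 (0.92) or rescued si-Rsl24d1 replicate 2 (0.94). It gave 1 to 3 for RA in si-CTL cells and 2 to 5 for the interaction with day, where Irx5 and Nkx6-2 were both lost without day 4 si-Rsl24d1 replicate 1. Six4 was called at day 0 without si-CTL replicate 2 (-0.86) or 3 (-0.90) or si-Rsl24d1 replicate 2 (-0.85).

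Median of ratios scaling moved the median of all genes from 0.13 to 0.0026 for the day 4 knockdown, from -0.10 to 0.0067 for RA in si-CTL cells, from 0.12 to 0.0057 for the same with rescue, from -0.11 to -0.0077 and from -0.12 to -0.0077 for rescue at day 0 in si-Rsl24d1 and si-CTL cells, and from 0.14 to 0.011 for the interaction with day. The share of upward calls over all genes moved from 88.8% to 72.6% for the day 4 knockdown, from 45.1% to 59.6% for RA in si-CTL cells, from 69.1% to 56.9% for the same with rescue, from 10.9% to 39.1% for rescue in si-Rsl24d1 cells at day 0, and from 51.7% to 32.1% for the interaction with day. Scaling gained Six5 (0.90) for RA in si-CTL cells and Irx3 (-0.90) for the interaction. The cause of these changes was not tested.

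Deviations from the group means correlated at -0.0173 on average over 84 pairs with the same replicate number, from -0.223 to 0.169. No pairing by number was thus seen on average, which does not exclude it. Deviations cancel within a group, so the mean over 168 pairs with different numbers, 0.00865, largely follows from the first and is no comparison. With a replicate block, 3 members were called in the day 0 knockdown and 1 with rescue, 1 in the day 4 knockdown and 4 in the interaction with day, as without it, and the block changed no other count. Depth is unknown, so the reads behind the levels under 1 TPM cannot be given.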
